A study of Saccharomyces cerevisiae with 2 samples.

Results

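The 10 genes described here encode nitrogen permeases and GATA-type transcription factors of the budding yeast Saccharomyces cerevisiae. They are GAP1, AGP1, MEP1, MEP2, MEP3, DAL5, DAL80, GZF3, GAT1 and GLN3, listed by name, with no threshold on their values, though with earlier results of these data known. They are 10 of 5598 genes with a value on both arrays and are covered by 15 of 10807 features. Yeast given 3% pyruvate was compared with yeast given 2% glucose on 2 arrays of 2 colours, each of which held RNA of both conditions. Pyruvate RNA carried Cy3 and glucose RNA Cy5 on array 1, and the dyes were exchanged on array 2. The sources used here give neither strain nor nitrogen source, growth phase or harvest time. Nothing in the labels tells separate cultures from repeat labelling of the same RNA, so the p-values reflect array-to-array spread that may be technical only.

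Yeast adapts its uptake of nitrogen to what the medium offers, a control known as nitrogen catabolite repression. With a good source such as glutamine, the GATA activators Gln3 and Gat1 are kept from the nucleus, in part through Ure2 and TOR signalling, and permeases and enzymes for poor sources are little transcribed. When good sources run short, Gln3 and Gat1 bind GATA sequences in the promoters of these genes, while the GATA repressors Dal80 and Gzf3 compete for the same sequences. Gap1 takes up most amino acids, Agp1 many of them, the Mep proteins ammonium, and Dal5 allantoate and ureidosuccinate.

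Each value below is a log2 ratio of pyruvate over glucose, given on array 1 and array 2 and as mean ± SD (n = 2), so that 1 is a 2-fold difference. The direction rests on reading the deposited ratio as Cy5 over Cy3, which is likely but stated by no source; read the other way round, all signs would be reversed. A gene was said to rise or fall where limma gave it an adjusted p under 0.05 over all 5598 genes. An exact sign-flip test of 1 gene on 2 arrays cannot go below p = 0.5, and having only 2 arrays limits how precise any value can be.

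In pyruvate, the transcripts of the general amino acid permease GAP1, the amino acid permease AGP1 and the GATA activator GLN3 rose, and that of the ammonium permease MEP3 fell. The 3 increases lay between 1.62-fold and 1.97-fold, and the decrease was 2.13-fold. Transcripts of MEP1, MEP2, DAL5, DAL80, GZF3 and GAT1 did not pass the test. Of all genes, 27.1% rose and 17.2% fell, and 44.3% passed in either direction. The counts of 3 and 1 of 10 are thus close to what all genes gave. The median of the 10 genes was 0.38, against 0.10 for all genes, and moved with the array, at 0.57 on array 1 and 0.16 on array 2. On both arrays 7 of the 10 genes were above 0, against 47.3% of all genes, 1 was below 0, against 36.3%, and 2 had opposite signs, against 16.4%. On both arrays 0 of the 10 were at least 2-fold higher, against 12.7% of all genes, and 1 was at least 2-fold lower, against 4.81%.

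**Figure D1:**
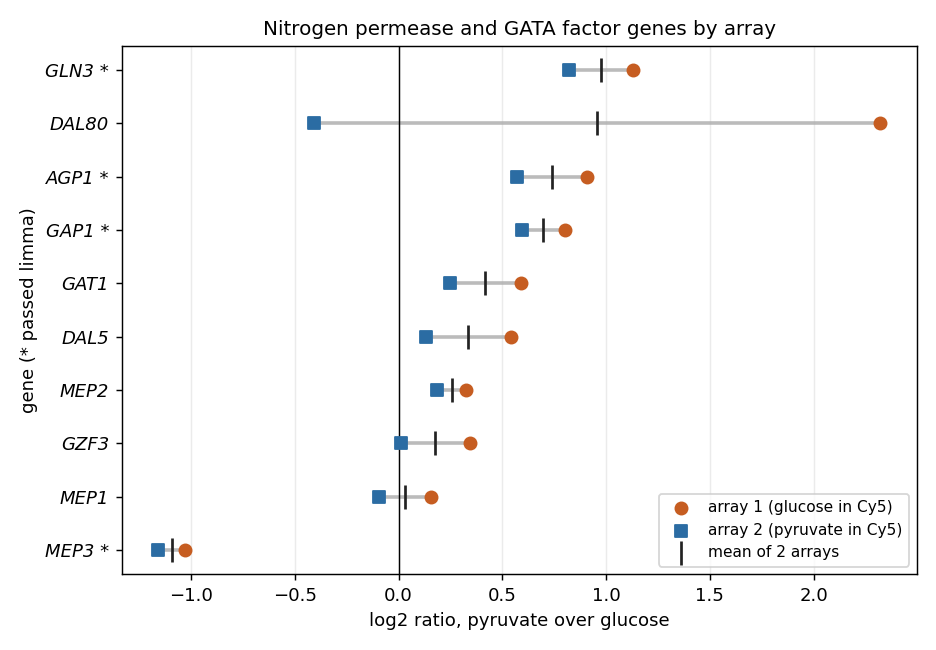
Log2 ratios of pyruvate over glucose (horizontal axis) of the 10 genes, ordered by their mean, with circles for array 1, squares for array 2 and a bar for the mean of the 2 arrays. The array 1 value lies to the right of the array 2 value in all 10 genes, and the gap is widest in DAL80.

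Among the permeases for amino acids, GAP1 had ratios of 0.80 on array 1 and 0.59 on array 2. Both arrays thus put GAP1 higher in pyruvate, and its 2 features gave 0.81 and 0.79 on array 1 and 0.50 and 0.69 on array 2. The mean was 0.70 ± 0.15 (1.62-fold, limma adjusted p = 0.0301), rank 1272 of 5598 genes from the highest ratio down. AGP1, whose transcription also responds to external amino acids through the Ssy1 sensor, had 0.91 and 0.57 and a mean of 0.74 ± 0.24 (1.67-fold, limma adjusted p = 0.0391). Features of AGP1 gave 0.97 and 0.85 on array 1 and 0.53 and 0.61 on array 2, and with its first feature alone the limma adjusted p was 0.0533, which misses the threshold. AGP1 and GAP1 differed by -0.11 on array 1 and 0.02 on array 2 (GAP1 minus AGP1), so their order depends on the array.

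Of the ammonium permease genes, MEP3 fell and MEP1 and MEP2 did not pass; the differences between them were not tested. MEP3 had -1.03 on array 1 and -1.16 on array 2, below 0 on both. Its mean of -1.09 ± 0.09 was 2.13-fold lower in pyruvate (limma adjusted p = 0.0155), rank 5313 of 5598. MEP3 was the gene of the 10 at least 2-fold lower on both arrays. MEP2, which encodes the permease of highest affinity and also a sensor for filamentous growth, had 0.32 and 0.19 and averaged 0.26 ± 0.10, which is not past the test (limma adjusted p = 0.126). MEP1 had 0.15 and -0.10 (mean 0.03 ± 0.18, limma adjusted p = 0.858), and its arrays lay on opposite sides of 0. The ratio of MEP2 exceeded that of MEP3 by 1.35 on each array (SD 0.0028), and exceeded that of MEP1 by 0.17 and 0.28. MEP1 and MEP3 rest on 1 feature each, and MEP2 on 2, which gave 0.34 and 0.31 on array 1 and 0.27 and 0.11 on array 2. The SD of 0.0028 is from averaged features and leaves out this spread.

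DAL5, the permease for allantoate and ureidosuccinate, had ratios of 0.54 on array 1 and 0.13 on array 2. Both were above 0, but the gap between arrays was wider than in 81.2% of all genes, and the mean of 0.34 ± 0.29 did not pass (limma adjusted p = 0.177). It rests on 1 feature.

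Of the GATA activators, GLN3 rose and GAT1 did not pass. GLN3 had 1.13 on array 1 and 0.82 on array 2, with 1.11 and 1.15 from its 2 features on array 1 and 0.93 and 0.71 on array 2. The mean of 0.97 ± 0.22 (1.97-fold, limma adjusted p = 0.0244) was the highest of the 10 genes and rank 858 of all genes. GAT1, itself a target of the nitrogen response, had 0.59 and 0.25 with a mean of 0.42 ± 0.24 (limma adjusted p = 0.102). GAT1 minus GLN3 was -0.54 on array 1 and -0.57 on array 2, so that GAT1 lay below GLN3 by a similar amount on each.

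Neither repressor gene passed. GZF3 had 0.34 and 0.01 with a mean of 0.18 ± 0.24 (limma adjusted p = 0.355), and its features gave 0.35 and 0.33 on array 1 and -0.13 and 0.15 on array 2. DAL80 had 2.32 on array 1 and -0.41 on array 2, so the arrays put the gene on opposite sides. The mean of 0.96 ± 1.93 (limma adjusted p = 0.422) came next below that of GLN3, with a gap between arrays wider than in 98.7% of all genes. The deposited values of its single feature equal log2 of 1 over 5 on array 1 and, less a constant of 0.008, log2 of 3 over 4 on array 2, both within 0.0006. That constant was picked because it put the most features of array 2 at ratios of whole numbers up to 10. Such ratios of small whole numbers on every feature and both arrays were found in 18 of 5598 genes (0.322%), and DAL80 is the only 1 of the 10. Read as Cy5 over Cy3, Cy3 was the brighter dye at this feature on both arrays, and it carried pyruvate RNA on array 1 and glucose RNA on array 2. Signal over background is not in the table, so whether this feature was dim was not tested, and no direction can be given for DAL80.

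In the order of the means, GLN3, DAL80, AGP1, GAP1, GAT1, DAL5, MEP2, GZF3 and MEP1 followed each other with gaps of 0.02 to 0.28. All these gaps except that between GAP1 and GAT1 were smaller than the larger SD of the genes beside them. MEP3 stood 1.12 below MEP1, more than either SD.

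All 10 genes had a higher ratio on array 1 than on array 2, as did 55.2% of all genes. The difference of the arrays (array 2 minus array 1) divided by 2 had a median of -0.16 over the 10 genes and -0.01 over all genes. Each dye order was used on 1 array, so effects of the dyes and of the arrays cannot be told apart. The median ratio of all genes was 0.18 on array 1 and 0.02 on array 2. After each array was centred on its median, GAP1 stood at 0.59, AGP1 at 0.64, GLN3 at 0.87 and MEP3 at -1.20, all past the test, and MEP1 at -0.07, with its sign turned.

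**Figure D2:**
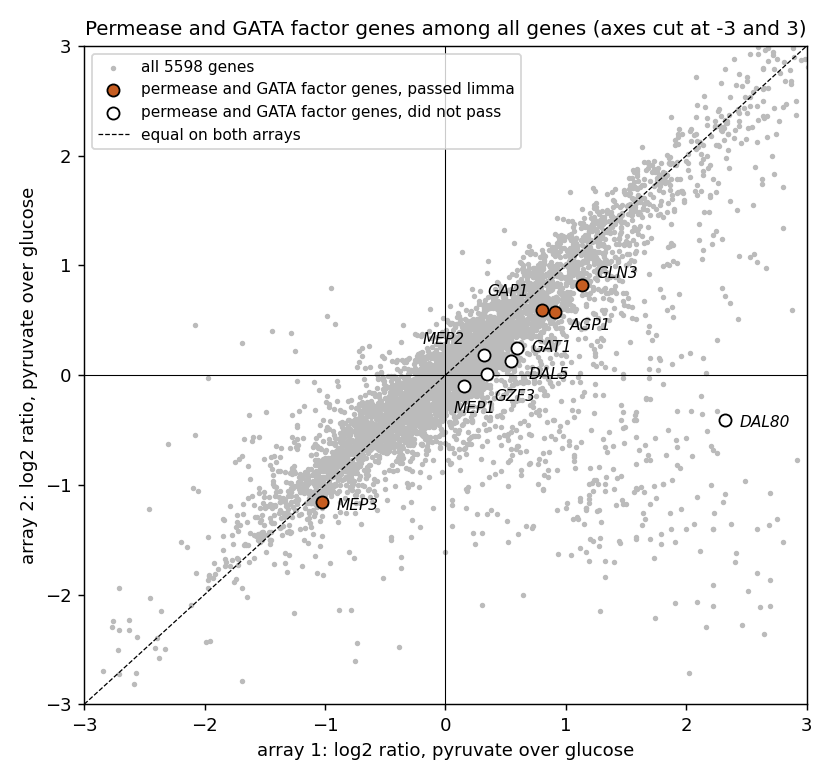
Log2 ratios of pyruvate over glucose on array 1 (horizontal axis) and array 2 (vertical axis), with all genes in grey, the genes that passed limma filled and the others open; 132 genes lie outside the range shown. The 10 genes all lie below the dashed line of equal ratios, and DAL80 lies far from it, at 2.32 and -0.41.

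The genes whose pair of ratios lay nearest to that of MEP3, by Euclidean distance over the 2 arrays, were SGM1 (distance 0.0158), BCD1 (0.0262) and NUP100 (0.0372), and 28 other genes lay within 0.1 of it. Nearest to MEP1, whose mean was smallest in size, were SLD5, BUB3 and KIN28, at distances of 0.0186 to 0.0241, with 98 other genes within 0.1. With 2 arrays many genes share nearly the same pair of values.

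The other genes of nitrogen use were taken from 8 lists, of which 76 of 77 genes had a value and the other, DUR1,2, is not analysed here. Together, 28 of these 76 genes rose, against 27.1% of all genes, 9 fell, against 17.2%, and 39 did not pass. The counts of each list below stand beside the same shares of all genes. Their median was 0.27, with 0.43 on array 1 and 0.13 on array 2. After centring, 21 of them were higher and 10 lower, beside 1392 higher and 1261 lower of all 5598 genes.

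Of 7 genes for allantoin and urea use, 3 rose, 0 fell and 4 did not pass. After centring, 4 of the 7 were higher and 1 was lower, beside 1392 higher and 1261 lower of all 5598 genes. The median was 0.72, with 1.20 on array 1 and 0.33 on array 2. DAL2, the allantoicase, had 1.83 on array 1 and 1.76 on array 2 and rose by 1.79 ± 0.05 (3.46-fold, limma adjusted p = 0.0124). DCG1 rose by 1.18 ± 0.02 and DAL3, the ureidoglycolate lyase, by 1.06 ± 0.25. DAL4, the allantoin permease, had 1.10 and 0.33 and did not pass, and DUR3, a permease for urea and polyamines, had -0.10 and -1.21 and did not pass either. DAL4 and DUR3 rest on 1 feature each, which lay at a ratio of small whole numbers on array 2. In the annotation DAL1, DAL4, DAL2, DCG1, DAL7 and DAL3 are neighbours in this order. Of the 6, the allantoinase gene DAL1 (1.36 on array 1 and -0.52 on array 2) and the malate synthase gene DAL7 (0.28 and -0.10), named after their values were seen, had opposite signs on the arrays. So did 16.4% of all genes. All 7 genes of this list, like the 10 above, had the higher ratio on array 1.

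Of 17 genes for GABA, proline, asparagine, glutamine and glutamate, 8 rose, 3 fell and 6 did not pass. The median was 0.21, with 0.87 on array 1 and 0.29 on array 2. The near-identical copies ASP3-1, ASP3-2, ASP3-3 and ASP3-4 each count as a gene among those that did not pass. The median of 0.87 on array 1 is the value of ASP3-3. The counts and medians of this list and of the 76 genes together thus weigh ASP3 repeatedly. PUT4, the proline permease, had 4.67 on array 1 and 4.59 on array 2, a rise of 4.63 ± 0.05 (24.8-fold, limma adjusted p = 0.0115). GDH2, the glutamate dehydrogenase that breaks glutamate down, had 3.61 and 3.69 and rose by 3.65 ± 0.06 (12.6-fold). Both changes were larger than any among the 10 genes above.

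The proline oxidase gene PUT1 rose by 1.67 ± 0.62 and PUT2, the next enzyme of proline breakdown, by 1.09 ± 0.09. The GABA transaminase gene UGA1 rose by 1.21 ± 0.0007, the succinate semialdehyde dehydrogenase gene UGA2 by 0.62 ± 0.07 and the branched-chain aminotransferase gene BAT2 by 1.18 ± 0.08. UGA1 rests on 1 feature, and so small an SD of 2 arrays says little about precision. Over all genes the arrays differed by a median of 0.179. GDH3, an isoform of the glutamate dehydrogenase that forms glutamate, rose by 1.96 ± 0.41, while GDH1, the other isoform, missed the threshold (0.13 on array 1 and 0.29 on array 2). Decreases were measured in GLT1, the glutamate synthase, (-1.31 ± 0.33, 2.49-fold lower), GLN1, the glutamine synthetase (-1.22 ± 0.29, 2.33-fold lower), and ASP1, the cytosolic asparaginase (-1.03 ± 0.04). The limma adjusted p of the changes from PUT1 to ASP1 lay between 0.0137 and 0.0358. ASP3-2, a copy of the cell wall asparaginase, had 0.91 and -0.58 and did not pass; the copies of ASP3 are near-identical, and their separate values are uncertain.

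**Figure D3:**
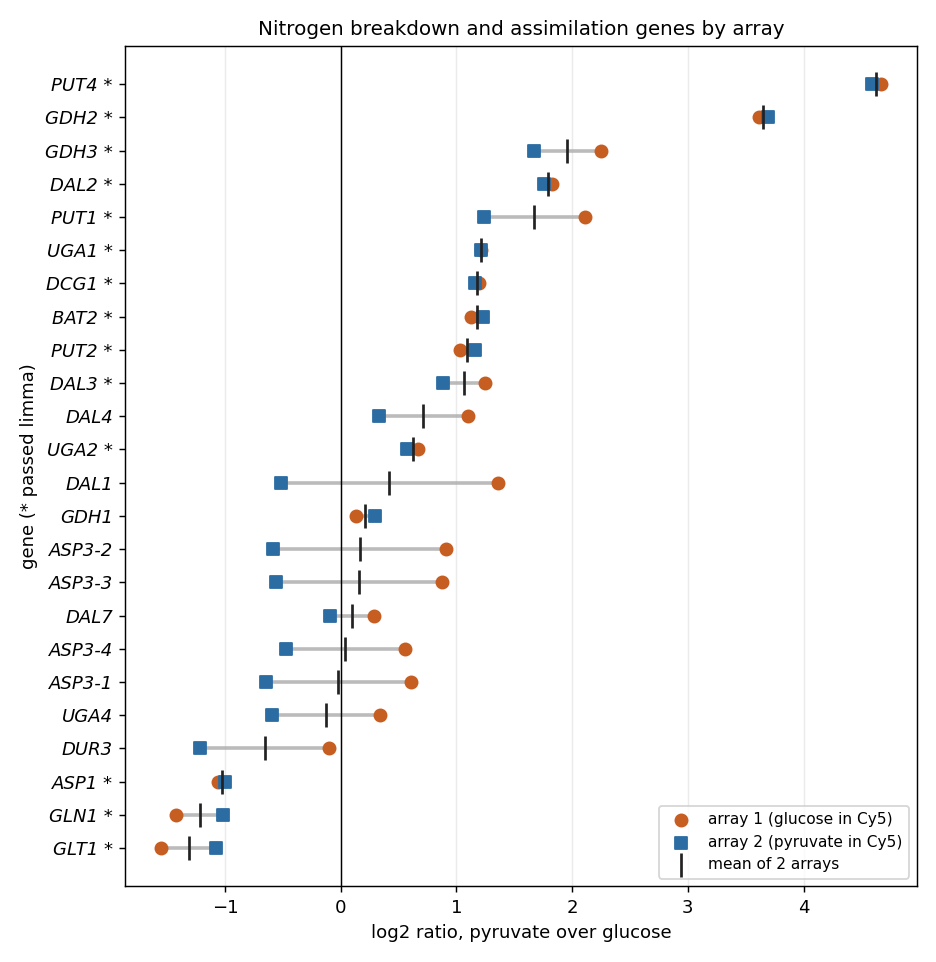
Log2 ratios of pyruvate over glucose (horizontal axis) of the 24 genes for allantoin, urea, GABA, proline, asparagine, glutamine and glutamate, with circles for array 1, squares for array 2, a bar for the mean and a star at genes that passed limma. PUT4 and GDH2 stand apart at 4.63 and 3.65, and GLN1 and GLT1 lie lowest.

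Of 12 regulators of the pathway, 6 rose, against 27.1% of all genes, 0 fell, against 17.2%, and 6 did not pass (median 0.41). After centring, 2 of the 12 were higher, beside 1392 of all 5598 genes. NPR1, a kinase that stabilises Gap1 and keeps the Mep permeases active, had 1.16 on array 1 and 1.12 on array 2 and rose by 1.14 ± 0.03 (2.21-fold, limma adjusted p = 0.0146). TAP42, a phosphatase partner under TOR, rose by 0.65 ± 0.22, and its single feature lay at a ratio of small whole numbers on array 2. URE2, the cytoplasmic partner of Gln3, rose by 0.57 ± 0.11, the allantoin pathway activator DAL82 by 0.53 ± 0.02, the kinase gene TOR1 by 0.51 ± 0.02 and NPR2 by 0.48 ± 0.02. After centring, URE2, DAL82, TOR1 and NPR2 missed the threshold, with limma adjusted p-values of 0.0579 to 0.0905. The proline activator PUT3 (0.41 and 0.26) and the phosphatase SIT4 (-0.23 and -0.20) did not pass.

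Of 16 other amino acid permeases, 4 rose, 6 fell and 6 did not pass (median -0.12). DIP5, the permease for glutamate and aspartate, had 2.48 on array 1 and 2.44 on array 2 and rose by 2.46 ± 0.03 (5.50-fold, limma adjusted p = 0.0115). AGP2 rose by 2.12 ± 0.33, ALP1, of the basic amino acid permease family, by 0.95 ± 0.22 and TAT1, for tyrosine and branched-chain amino acids, by 0.48 ± 0.04. Both features of ALP1 lay at ratios of small whole numbers on array 1, and ALP1 had no value without such features. TAT1 missed the threshold after centring (limma adjusted p = 0.101). SAM3, the permease for S-adenosylmethionine, had -1.64 and -1.70 and fell to -1.67 ± 0.05 (3.18-fold lower, limma adjusted p = 0.0126).

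BAP3, for branched-chain amino acids, fell to -1.41 ± 0.07, the methionine permease genes MUP3 and MUP1 to -0.95 ± 0.30 and -0.63 ± 0.12, the lysine permease gene LYP1 to -0.82 ± 0.04 and the histidine permease gene HIP1 to -0.67 ± 0.10. For MUP3, the last feature alone did not pass. AGP3 (0.89 on array 1 and -0.10 on array 2) and the arginine permease gene CAN1 (-0.44 and -0.26) did not pass. GAP1 and AGP1, at 0.70 and 0.74, thus had ratios inside the range of the other permeases, from -1.67 to 2.46.

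Of 6 genes of amino acid sensing by Ssy1, Ptr3 and Ssy5, 3 rose, 0 fell and 3 did not pass (median 0.38). The peptide permease gene PTR2 rose by 1.12 ± 0.20, and the transcription factor genes STP1 and STP2, which act on AGP1, rose by 0.44 ± 0.03 and 0.40 ± 0.03, both short of the threshold after centring (limma adjusted p = 0.13 and 0.162). STP2 also missed it after the arrays were scaled and with its last feature alone. SSY5 (0.68 and 0.02) and SSY1 (-0.32 and -0.25) did not pass. Of 7 genes for the sorting and turnover of permeases (median -0.08), LST7, needed for delivery of Gap1 to the cell surface, rose by 1.11 ± 0.02 (limma adjusted p = 0.0148), 0 fell and 6 did not pass, among them BUL1 (-0.32 and -0.35), which directs ubiquitination of Gap1, and LST4 (0.23 and 0.31).

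Of 6 other genes with GATA-type zinc fingers, 1 rose, 0 fell and 5 did not pass. The list median of 0.34 has no settled sign, as it was 1.41 on array 1 and -0.58 on array 2. GAT2 rose by 0.65 ± 0.04 (limma adjusted p = 0.0247). SRD1 had 1.12 on array 1 and 0.02 on array 2, and GAT3 had 2.70 and -1.87, so opposite signs on the arrays as in DAL80. ECM23 (2.64 and -2.36), GAT4 (1.70 and -1.17) and ASH1 (-0.08 and 0.23), named after their values were seen, had opposite signs too. That makes 4 of the 6 genes, against 16.4% of all genes. The GAT3 features on array 1 also lay at ratios of small whole numbers, and the GAT3 gap between arrays was wider than in 99.9% of all genes. Of 5 vacuolar protease genes, 2 rose, 0 fell and 3 did not pass (median 0.54). The aminopeptidase gene APE1, also called LAP4, rose by 2.12 ± 0.03 (4.33-fold, limma adjusted p = 0.0118). PEP4, the main vacuolar protease, rose by 0.54 ± 0.0064, but not past the threshold after centring (limma adjusted p = 0.0611). PEP4 rests on 1 feature, and its small SD of 2 arrays says little about precision. PRC1 (0.39 and 0.72) and CPS1 (0.37 and 0.31) did not pass.

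**Figure D4:**
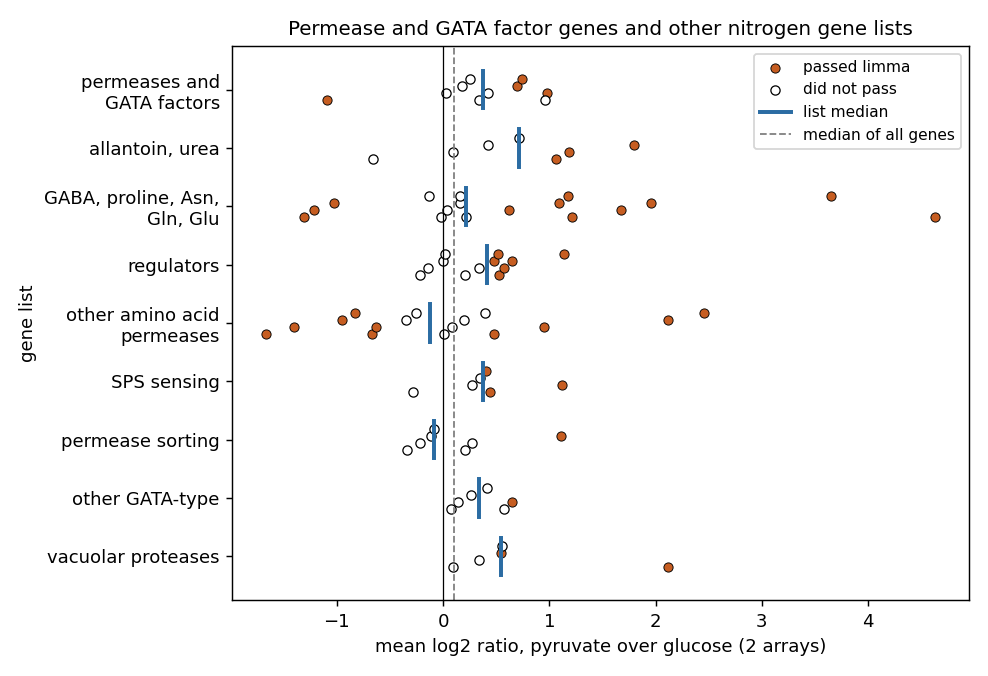
Mean log2 ratios of pyruvate over glucose over 2 arrays (horizontal axis) of the 10 permease and GATA factor genes and of 8 other lists, with 1 point a gene, filled where it passed limma, a blue bar for each list's median and a dashed line for the median of all genes at 0.10. The 10 genes span -1.09 to 0.97, a narrower range than the other amino acid permeases.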

How the data were processed

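RNA amplified and labelled with an Agilent kit was hybridised to 2 arrays with swapped dyes, per the labels. The authors deposited log2 ratios of both channels for 10807 features; their scaling, background correction and software are not stated in any source used here. Base 2 was inferred, since many values lie at log2 of ratios of whole numbers up to 10 (949 features on array 1). With other constants taken off the values, array 1 gave a median of 158.5 such features and at most 245. On array 2 the constant of 0.008 was picked because it gave the most, 800, against at most 418 with another. Deposited medians were -0.29 on array 1 and -0.08 on array 2. Array 1 was multiplied by -1, as the dyes in the labels require. Over features of named genes the deposited arrays correlated at r = -0.81, a correlation across features, which are not independent replicates. Over unnamed features r was 0.86, and over all features 0.157.

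Features were named through the platform annotation and RefSeq gene identifiers (9194 of 9202 matched) and averaged per gene. limma 3.58.1 in R 4.3.3 (lmFit and eBayes, 1 residual and 1.67 prior degrees of freedom) gave p-values, adjusted by Benjamini-Hochberg over 5598 genes. No dye term was fitted, as it would use up the residual degree of freedom. The fit was also run on simulated data with independent arrays and variances drawn from its own fitted prior. That run checks the working of the fit and cannot vouch for the calls made here.

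The 10 genes and the lists were chosen with earlier results of these data known. By rule the text names all 10 genes, the list genes that passed and the 2 largest in size that did not. It also names the 3 genes nearest to MEP3 and to MEP1, whose means were the largest and the smallest in absolute size. Lists are described by counts and medians, with no set test. Coordinates are not printed, because no source names the build of the array.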

Additional observations from a re-analysis of the deposited data

How the results depend on the processing

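The calls of the 10 genes were repeated with centred or scaled arrays, robust or no moderation, medians over features, single features, other thresholds, a minimum change, and without features at ratios of small whole numbers. The removal of such features on both arrays was chosen after seeing the data. GAP1, AGP1, GLN3 and MEP3 kept their calls with centred or scaled arrays and with robust moderation. With single features GAP1 and GLN3 kept theirs, and AGP1 lost it with the first feature alone (0.75, limma adjusted p = 0.0533). A threshold of 0.1 could not remove a call. Medians over features, the removal of features at small whole-number ratios and, for MEP3, which has 1 feature, single features left the ratios of these genes as they were, so they say little about stability. The calls were lost without moderation, at an adjusted p under 0.01 and against a minimum change of 1.5-fold, with means of 0.70 for GAP1, 0.97 for GLN3, -1.09 for MEP3 and 0.74 for AGP1 in each; none of the 6 other genes passed under any alternative run, and DAL80 had no value in 2 of them.

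Without moderation limma's estimates gave 0 of the 10 genes and 0 of the list genes in either direction, and 5 higher and 5 lower genes of all (1, 30 and 1580 at an unadjusted p under 0.05). At an adjusted p under 0.01 moderated limma gave 0 in each of these counts (4, 42 and 3180 at an unadjusted p under 0.05). Against 1.5-fold it gave 0 of the 10 genes, 12 higher and 2 lower list genes, and 573 higher and 184 lower genes of all (2, 23 and 1420 unadjusted). These settings ask for more evidence from 2 arrays by construction.

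With 1 array no test can be made: array 2 alone gave -1.16 to 0.82 over the 10 genes and array 1 alone -1.03 to 2.32. The median of the other nitrogen genes was 0.13 from array 2 and 0.43 from array 1. A count of promoters with GATA motifs was planned and not run. Each ratio already pairs both conditions within an array, so no further block was fitted.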
